A study of Mus musculus with 18 samples.

Results

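The genes for the proteins of the cytosolic ribosome were followed in 2 immortalized mouse embryonic fibroblast (MEF) lines, before and after an oxidant. They were taken by name, as every Rpl, Rplp, Rps or Rpsa gene in 3 tables of genes called different between the lines, without S6 kinase genes and without names marked as pseudogenes. The rule found 79 genes, 47 with large subunit names and 32 with small subunit names, among 10133 genes in the 3 tables together. One line was wild type (WT) at eIF2α and the other carried eIF2α S51A, in which alanine replaces the serine whose phosphorylation by stress kinases slows the start of translation. Each line was untreated (0 min) or was given 500 µM hydrogen peroxide for 15 or 120 min, which gives 6 groups with 3 labelled samples each, 18 in all. The series text speaks of duplicates. All groups were immortalized cells grown in the same medium, and each genotype is represented by 1 line, whose other differences cannot be told apart from those of the genotype.

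The tables hold 1 FPKM value per line, time and gene (fragments per kilobase of transcript, scaled to the mapped reads, so levels can be compared between genes) and the authors' q-value for the difference. How far samples of a group differed, how many entered a value and how deeply they were sequenced is unknown here, so values carry no standard deviation and no new test was made. "Lower" and "higher" compare S51A with WT at 1 time and rest on the authors' call. Where a pair of FPKM values is given, WT comes first and S51A next. A gene not listed at a time was not called or not entered there, which does not show that its levels were equal. The labels do not say whether samples were separate cultures, so the q-values may reflect technical spread alone. In RNA from whole cultures, a lower level in each cell and fewer cells that express a gene cannot be told apart.

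A ribosome joins a small subunit, which reads the mRNA, to a large subunit, which forms the peptide bonds, and nearly every protein is needed in 1 copy per ribosome. The mRNAs of these proteins are short and abundant and begin with a run of pyrimidines, the terminal oligopyrimidine (TOP) tract, through which mTOR signalling and the binding protein Larp1 control their translation and stability. Phosphorylation of eIF2α acts on a separate step, the delivery of the initiator tRNA.

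Of the 79 genes, 59 had a promoter in the RefSeq table for GRCm38.p6. The letters CGGAAG, the core bound by ETS factors such as GABP, stood on either strand within 250 bases before and 50 bases after the start in 39 of the 59 (66.1%), against 16.9% of 32851 promoter windows of all genes. CTCTTTC, a pyrimidine stretch of TOP type, was present on either strand in 15 of 59 (25.4%), against 8.16% of all windows. On the sense strand within 30 bases of the start it was present in 10.2% of the 59 windows, against 0.813% of all windows. Promoters are shown for genes that mark the range of the results below. Of these, Rpl41, Rps21, Rps24 and Rpl38 had large changes of the log2 ratio from 0 to 120 min (2.11, 2.10, 2.02 and 2.01). Rps26 was listed only after peroxide. Rpl22l1 was the sole gene higher in untreated S51A cells, and Rps13 had the lowest ratio. Rps24, like Rpl22l1 and Rps13, has neither motif in the stretch shown. Each stretch shown runs from 120 bases before the annotated start through the first 30 transcribed bases, 5′ to 3′ along the gene. Capitals mark CGGAAG or CTCTTTC on either strand. Positions are chr10:128549139-128549288 on the reverse strand for Rpl41, chr2:180257259-180257408 on the forward strand for Rps21, chr11:114668460-114668609 on the forward strand for Rpl38, chr10:128626477-128626626 on the reverse strand for Rps26, chr3:28805388-28805537 on the forward strand for Rpl22l1, chr7:116334161-116334310 on the reverse strand for Rps13 and chr14:24490558-24490707 on the forward strand for Rps24.
Rpl41: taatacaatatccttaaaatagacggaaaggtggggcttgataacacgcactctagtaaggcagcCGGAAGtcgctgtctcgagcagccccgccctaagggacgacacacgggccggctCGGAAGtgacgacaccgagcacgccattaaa
Rps21: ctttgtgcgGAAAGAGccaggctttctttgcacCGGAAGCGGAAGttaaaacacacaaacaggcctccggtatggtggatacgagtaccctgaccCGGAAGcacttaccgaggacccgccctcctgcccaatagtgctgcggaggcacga
Rpl38: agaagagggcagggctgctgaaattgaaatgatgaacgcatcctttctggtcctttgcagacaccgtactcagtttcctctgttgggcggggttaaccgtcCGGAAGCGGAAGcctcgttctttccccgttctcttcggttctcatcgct
Rps26: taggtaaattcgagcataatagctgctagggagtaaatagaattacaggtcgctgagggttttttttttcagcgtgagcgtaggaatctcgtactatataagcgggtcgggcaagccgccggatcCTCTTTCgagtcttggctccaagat
Rpl22l1: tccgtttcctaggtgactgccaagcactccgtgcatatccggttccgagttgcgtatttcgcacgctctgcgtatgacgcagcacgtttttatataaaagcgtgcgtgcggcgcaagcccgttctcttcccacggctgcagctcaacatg
Rps13: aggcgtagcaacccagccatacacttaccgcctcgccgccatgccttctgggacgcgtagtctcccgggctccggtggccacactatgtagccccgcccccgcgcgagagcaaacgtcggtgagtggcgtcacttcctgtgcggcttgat
Rps24: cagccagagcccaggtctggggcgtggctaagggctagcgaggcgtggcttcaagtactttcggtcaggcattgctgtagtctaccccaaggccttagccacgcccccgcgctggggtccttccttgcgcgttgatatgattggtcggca
Rpl41 and Rps21 carry several ETS cores, Rpl38 carries a tandem pair just before its start, and Rps26 has CTCTTTC just after its start. The annotated starts need not be those used in these cells, and a match of letters shows no binding. At 0 min the median log2 ratio of S51A to WT was -0.95 with CGGAAG in the 300-base window (37 genes) and -0.74 without (20). It was -0.48 and -0.39 at 15 min, and 0.72 and 0.74 at 120 min. For CTCTTTC it was -0.98 with (14 genes) and -0.83 without (43) at 0 min, -0.44 and -0.41 at 15 min. At 120 min it was 0.83 and 0.70. A run of 8 pyrimidines within 30 bases of the start, on the sense strand, was present in 28 of 59 (47.5%), against 22.9% of all windows. The median log2 ratio was -0.88 with this run (26 genes) and -0.83 without (31) at 0 min. At 15 min it was -0.40 and -0.48, and at 120 min 0.69 and 0.76. No test of these gaps was made.

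Before peroxide, the ribosomal protein genes were lower in S51A almost without exception. The table for 0 min listed 76 of the 79, of which 75 were lower and 1, Rpl22l1, was higher. Lower genes thus made up 98.7% of those listed, against 50.4% of all 7555 listed genes (49.6% were higher). Their median level was 1031 and 539.3 FPKM in WT and S51A, and the median log2 ratio was -0.875 (a 1.83-fold difference), against -0.28 over all listed genes. The middle 50% of the ratios lay between -1.09 and -0.67, and WT levels ran from 51.3 FPKM (Rpl37rt) to 8135 FPKM (Rplp1). For other short and abundant genes, defined below, that middle 50% lay between -0.998 and -0.485. For mitochondrial ribosomal protein genes it lay between -1.075 and -0.58. In the authors' deposited table, 70 of the 76 carried the lowest q-value of the table, 0.000118, and the highest q-value was 0.0277, for Rpl41.

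After 15 min the same direction held for 54 of 62 listed genes (87.1%, against 50.1% of all 8308 listed genes, 49.9% being higher), with smaller differences. The median log2 ratio was -0.42, against -0.21 over all listed genes. The 8 higher genes were Rpl22l1, Rpl13, Rpl15, Rpl29, Rpl41, Rps24, Rps26 and Rps27rt. In the authors' deposited table, 42 of the 62 had the lowest q-value, 0.000102, and Rps24 had the highest, 0.0461.

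After 120 min the direction was opposite. Of 52 listed genes, 51 were higher in S51A (98.1%, against 50.9% of all 6119 listed genes, 49.1% being lower) and 1 was lower. The median log2 ratio was 0.745 (1.68-fold), against 0.40 over all listed genes, with medians of 935.8 and 1536 FPKM in WT and S51A. In the authors' deposited table, 27 of the 52 had the lowest q-value, 0.000198, and Rps25 had the highest, 0.0498.

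**Figure D1:**
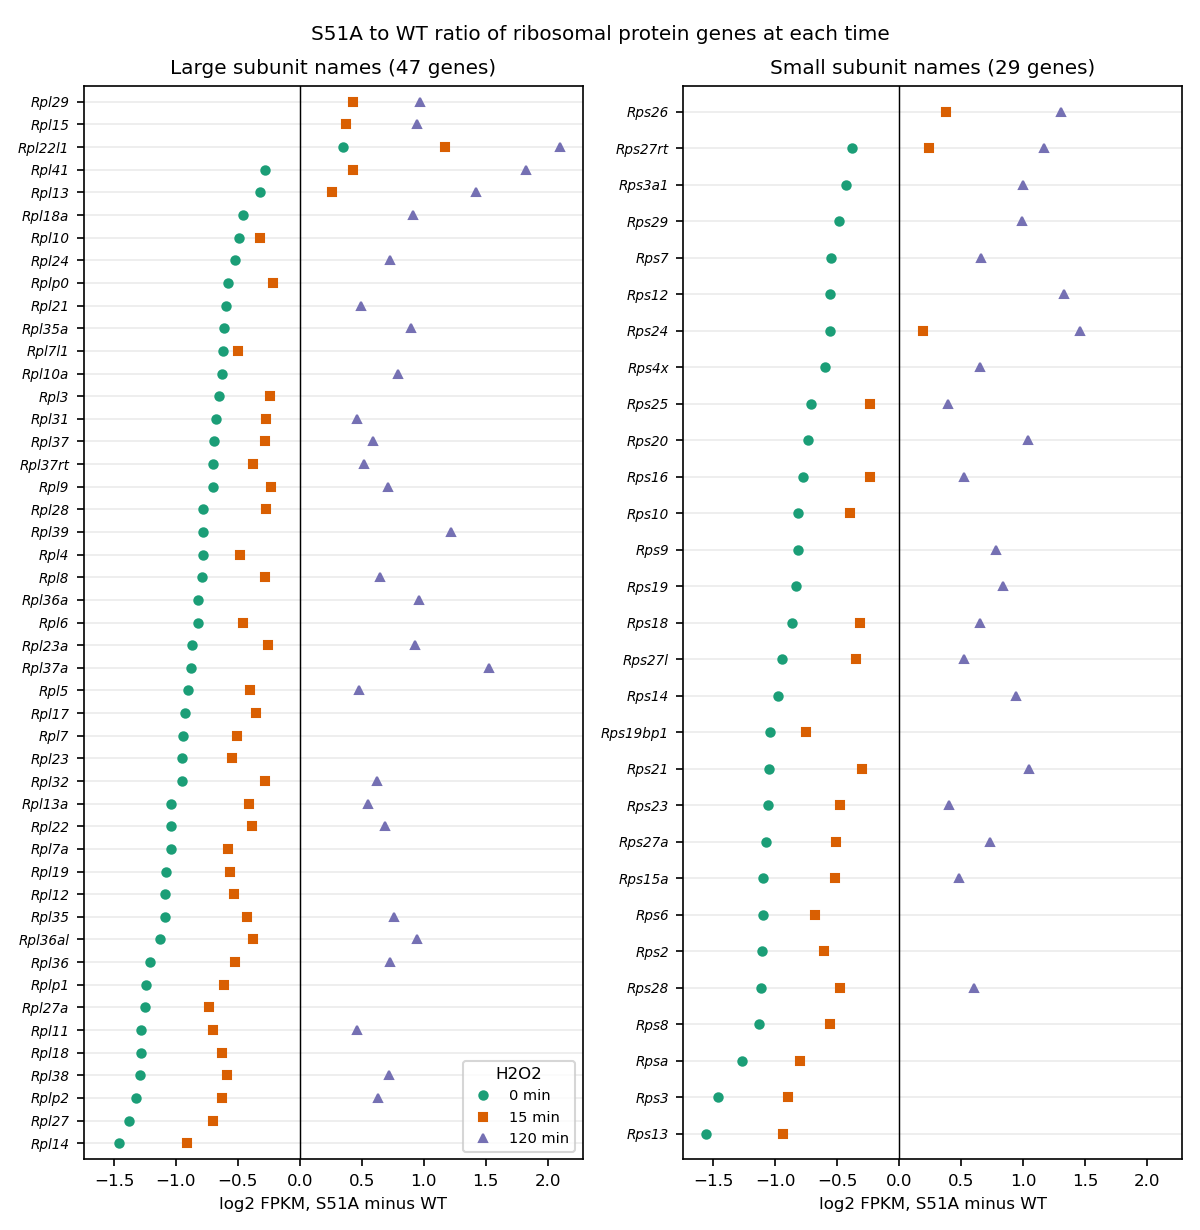
Log2 ratio of FPKM, S51A minus WT (x axis), for 76 of the 79 ribosomal protein genes (y axis; the other 3 are not shown), by subunit name; circles, squares and triangles are 0, 15 and 120 min of hydrogen peroxide, and a missing symbol is a gene not listed at that time. Nearly all circles lie left of 0, squares lie between, and all triangles shown lie right of 0.

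Genes that were not ribosomal protein genes but were also short and abundant differed in the same directions. Among the other listed genes with at least 100 FPKM in either line and a transcript under 1000 nt, 156 of 174 (89.7%) were lower at 0 min, 88 of 150 (58.7%) at 15 min, and 197 of 207 (95.2%) were higher at 120 min. Their median log2 ratios were -0.76, -0.28 and 0.93. Without the limit on length, 83.0% of 831 and 72.0% of 781 such genes were lower at 0 and 15 min and 68.0% of 721 were higher at 120 min. Of the ribosomal protein genes, 61 of 79 have a transcript under 1000 nt. Over all listed genes, log2 transcript length and log2 ratio had Pearson's r of 0.19 at 0 min, -0.04 at 15 min and -0.34 at 120 min (7233, 7901 and 5789 genes, which share the same libraries). Among the ribosomal protein genes these values were 0.00, -0.16 and -0.05 (76, 62 and 52 genes). The part of transcript length and abundance in the ribosomal protein result was not tested.

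The ribosomal stalk, which recruits the elongation factor GTPases, is formed by Rplp0 and copies of Rplp1 and Rplp2. Rplp1 (chr9:61913283-61914510, mm10, the authors' gene position) was the most abundant of the 76 listed at 0 min, with 8135 and 3444 FPKM in WT and S51A, and stood at 6123 and 4012 FPKM at 15 min. It was not listed at 120 min. Rplp2 was at 3692 and 1479 FPKM in WT and S51A at 0 min, at 2740 and 1771 FPKM at 15 min, and at 3666 and 5673 FPKM at 120 min. The S51A line thus had the lower Rplp2 value at both early times and the higher one at 120 min, a difference of 2.50-fold, 1.55-fold and again 1.55-fold. Rplp0, the anchor of the stalk, was at 1675 and 1121 FPKM at 0 min and at 1458 and 1252 FPKM at 15 min, a smaller difference than that of the acidic proteins it binds.

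Among large subunit proteins, Rpl5 and Rpl11 bind the smallest rRNA and, when free, the ubiquitin ligase Mdm2. Rpl5 was at 431 and 231 FPKM in WT and S51A at 0 min, 340 and 258 FPKM at 15 min, and 422 and 588 FPKM at 120 min. Rpl11 (chr4:136049948-136053371) was at 1618 and 666 FPKM, then 1235 and 760 FPKM, then 1541 and 2120 FPKM. Both reversed, and Rpl11 had the wider gap at 0 min (2.43-fold against 1.87-fold for Rpl5). Rpl3, close to the peptidyl transferase centre, was at 704 and 449 FPKM at 0 min and 572 and 484 FPKM at 15 min. Rpl10, one of the last proteins to join the large subunit, was at 929 and 662 FPKM at 0 min and 873 and 699 FPKM at 15 min. Neither Rpl3 nor Rpl10 was listed at 120 min. Rpl39, which lines the peptide exit tunnel, was at 1585 and 923 FPKM at 0 min and at 1652 and 3848 FPKM at 120 min, so its S51A value was the lower one first and 2.33-fold higher later. Rpl13a, known also for a part in silencing inflammatory mRNAs, was at 942 and 458 FPKM at 0 min, 719 and 541 FPKM at 15 min and 949 and 1389 FPKM at 120 min. Rpl38, required for normal skeletal patterning in the mouse, was at 3019 and 1235 FPKM, then 2226 and 1479 FPKM, then 2856 and 4705 FPKM.

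Rpl41 (chr10:128548110-128549168), which encodes a very short basic peptide, had the second largest ratio at 120 min. It was at 1438 and 1184 FPKM in WT and S51A at 0 min, at 1031 and 1389 FPKM at 15 min, and at 1428 and 5078 FPKM at 120 min. The 2 lines lay close together before peroxide, and the S51A value was 3.56-fold higher after 120 min. Rpl13 followed the same course, at 498 and 399 FPKM, then 391 and 468 FPKM, then 519 and 1389 FPKM. Rpl37a, not listed at 15 min, was at 671 and 365 FPKM at 0 min and at 605 and 1746 FPKM at 120 min, a 2.89-fold difference in the other direction.

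Among small subunit proteins, Rps13 (chr7:116331507-116334190) had the lowest ratio of the 76 listed at 0 min, with 1333 and 452 FPKM in WT and S51A, a 2.95-fold difference. At 15 min it was at 962 and 501 FPKM, again the lowest ratio, and it is missing from the table for 120 min. Rpl14 (2.75-fold), Rps3 (2.75-fold) and Rpl27 (2.60-fold) came next at 0 min. Rps3, at the mRNA entry channel and known also as a DNA repair nuclease, was at 855 and 311 FPKM at 0 min and 653 and 350 FPKM at 15 min. None of these 4 was listed at 120 min. The 27 genes listed at 0 but not at 120 min had a median log2 ratio of -1.08 at 0 min, against -0.79 for the 49 listed at both times.

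Rps6, the S6 kinase substrate that gave the kinase its name, was at 362 and 169 FPKM in WT and S51A at 0 min and 302 and 189 FPKM at 15 min. Rpsa, also known as the laminin receptor, was at 1218 and 505 FPKM and then 982 and 564 FPKM. Both were lower at both times and absent from the table for 120 min. Rps19, the gene most often altered in Diamond-Blackfan anaemia, was at 541 and 304 FPKM at 0 min and 556 and 996 FPKM at 120 min. Rps25, needed by some viral internal ribosome entry sites, was at 699 and 428 FPKM, then 588 and 498 FPKM, then 724 and 949 FPKM, with the smallest ratio of the higher genes at 120 min. Rps27a, made as a fusion with ubiquitin, was at 1144 and 541 FPKM, then 885 and 622 FPKM, then 1121 and 1859 FPKM. Rps4x, on the X chromosome, was at 1468 and 969 FPKM at 0 min and 1499 and 2353 FPKM at 120 min.

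Rps24, Rps26 and Rps27rt were the small subunit genes that were higher in S51A at 15 min. Rps24 was at 1067 and 724 FPKM in WT and S51A at 0 min, at 744 and 849 FPKM at 15 min, and at 1003 and 2759 FPKM at 120 min. Rps26, which contacts mRNA upstream of the start codon, was not listed at 0 min and stood at 1499 and 1951 FPKM at 15 min and 2048 and 5078 FPKM at 120 min. Rps21 was at 3304 and 1596 FPKM, then 2419 and 1965 FPKM, then 3083 and 6383 FPKM. In Rps24, Rps26 and Rps21 the S51A value at 120 min was 2.75-fold, 2.48-fold and 2.07-fold that of WT.

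Rpl22l1 (chr3:28805511-28807415) was the sole gene higher in S51A at every time. Its product is a paralog of Rpl22, an RNA-binding protein known to repress Rpl22l1. Rpl22l1 was at 85.6 and 109 FPKM in WT and S51A at 0 min (q = 0.0242 in the authors' deposited table), at 60.5 and 136 FPKM at 15 min, and at 107 and 458 FPKM at 120 min. Its log2 ratios, 0.35, 1.17 and 2.10, were the highest of the ribosomal protein genes at each time. Rpl22 itself was at 410 and 199 FPKM, then 294 and 224 FPKM, then 388 and 626 FPKM, which is the course of the majority. The part of Rpl22 in the level of Rpl22l1 was not tested.

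Other paralogs, those below among them, had the direction of the majority at each time they were listed, except Rps27rt at 15 min. Rpl36al was at 209 and 95.7 FPKM in WT and S51A at 0 min and at 186 and 360 FPKM at 120 min. Its partner Rpl36a was at 1053 and 596 FPKM at 0 min and at 1075 and 2091 FPKM at 120 min. Rps27l, a target of the tumour suppressor p53, was at 849 and 440 FPKM, then 644 and 505 FPKM, then 724 and 1038 FPKM. Rpl7l1, a paralog of Rpl7 that acts in ribosome assembly, was at 104 and 67.6 FPKM at 0 min, while Rpl7 was at 1499 and 781 FPKM. Rps19bp1, taken in by its name, encodes a protein that binds Rps19 and is no ribosomal protein; it was at 84.4 and 41.1 FPKM at 0 min.

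Many of these genes share sequence with other loci, mostly processed pseudogenes, so reads could be split between them. In the median ribosomal protein gene, 49.6% of the 75-nt windows of the transcript, the read length, also occur in the transcript of another annotated gene. Rps27rt shares 90.3% of its windows with Rps27, which is in none of the tables. Rpl37rt, annotated as a transcribed pseudogene, shares 79.1% with Rpl37. The values of these 2 genes are uncertain, as are those of others with much shared sequence, such as Rpl10 (91.9% of windows) and Rps13 (78.6%). Genes with under 20% of windows shared had median log2 ratios of -0.87, -0.37 and 0.725 at 0, 15 and 120 min (14, 12 and 10 genes). Genes with at least 70% shared had -0.82, -0.365 and 0.73 (23, 20 and 15 genes).

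The median log2 ratio was -0.87 for 45 large and -0.95 for 31 small subunit genes at 0 min, -0.40 and -0.48 at 15 min (39 and 23 genes), and 0.73 and 0.76 at 120 min (29 and 23 genes). No test of these gaps was made. The more highly expressed genes had a median of -0.945 and the others -0.82 at 0 min, -0.48 and -0.41 at 15 min, and 0.77 and 0.675 at 120 min, split at the median level of the listed genes. Over only the 32 genes listed at all 3 times and split by their level over the 3 tables, that gap changed sign at 0 and 15 min, to 0.015 and 0.09. Log2 level and log2 ratio had Pearson's r of -0.18, -0.14 and 0.15 across genes. The 29 genes that host small nucleolar RNA genes in their introns (57 in all) had medians of -0.90, -0.48 and 0.63, against -0.87, -0.39 and 0.76 for the rest.

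The order of the genes by level was much the same in both lines. Across genes, log2 FPKM in WT and in S51A had Pearson's r of 0.97, 0.97 and 0.96 at 0, 15 and 120 min. Log2 ratios at 0 and 15 min had r of 0.91 over 59 genes, and those at 0 and 120 min had 0.58 (Spearman's rho 0.42) over 49 genes, so genes least reduced in S51A before peroxide tended to have the higher ratios after it. These correlations are across genes of the same libraries and describe them only.

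**Figure D2:**
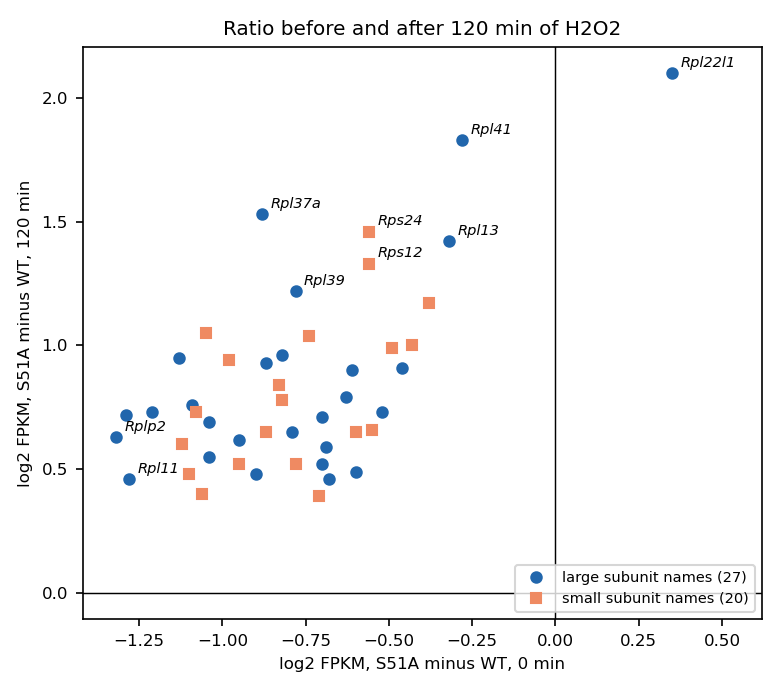
Log2 ratio of FPKM, S51A minus WT, at 0 min (x axis) and at 120 min (y axis) for 47 of the 49 ribosomal protein genes listed at both times (the other 2 are not shown); circles are large and squares small subunit names. All points shown but that of Rpl22l1 lie at the upper left, lower in S51A at 0 min and higher at 120 min.

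Levels set across times come from tables that may have been normalized separately, and no test was made between times. From 0 to 15 min, the WT value was smaller in all 59 genes listed at both times (median -0.34 log2, range -0.52 to -0.07) and the S51A value was larger in all 59 (median 0.21, range 0.05 to 0.36). The medians over all genes listed at both times were 0.01 and 0.02. Among 120 other short and abundant genes, 116 had a smaller WT value and 118 a larger S51A value. From 0 to 120 min, the WT value differed little, with a median of -0.01 over 49 genes (range -0.23 to 0.32). The S51A value was larger in all 49, by a median of 1.60 log2 or 3.03-fold (range 0.53 to 2.26), against a median of -0.22 over all genes listed at both times and 0.60 over the other genes with at least 100 FPKM. Among these 49 genes, the change of the ratio between 0 and 120 min thus stood in the S51A values. Only genes called at both times enter here, and 51 of the 52 ribosomal protein genes called at 120 min were higher in S51A then. A larger S51A value at 120 min is therefore partly given by the choice of genes. The 27 ribosomal protein genes listed at 0 but not at 120 min are not covered. In the other short and abundant genes the S51A value was larger in 146 of 149, with a median of 1.21.

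Rpl37a had an S51A value at 120 min that was 4.79-fold that at 0 min, followed by Rpl41 at 4.29-fold, Rpl22l1 at 4.20-fold and Rpl39 at 4.17-fold. Rpl31, at 2.01-fold, was near the lower end. In WT the range was narrow, from 0.85-fold in Rps27l to 1.25-fold in Rpl22l1. Summed over the 32 genes listed at all 3 times, S51A stood at 0.534 of WT at 0 min (21152 and 39629 FPKM), 0.814 at 15 min (24740 and 30402 FPKM) and 1.75 at 120 min (67385 and 38607 FPKM). The sum in WT was nearly the same at 0 and 120 min, while that in S51A was larger at 120 min. Of these 32 genes, 31 were called higher in S51A at 120 min, so the ratio of the sums there depends on which genes were called. The sums leave out Rplp1 and the other genes not listed at all 3 times, and do not stand for all ribosomal protein genes.

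**Figure D3:**
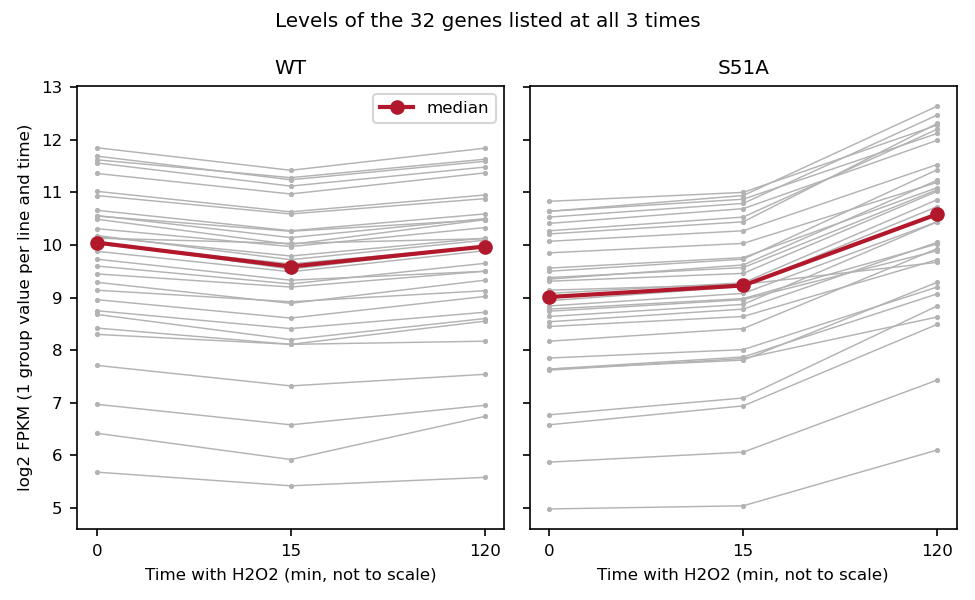
Log2 FPKM (y axis) of the 32 ribosomal protein genes listed at all 3 times, in WT (left) and S51A (right), against minutes with hydrogen peroxide (x axis, not to scale); grey lines are genes and the red line is their median. WT lines dip at 15 min and return, and S51A lines are highest at 120 min.

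Of the genes listed at both 0 and 120 min, 47 of 49 ribosomal protein genes (95.9%) were first lower and then higher in S51A. Of all genes listed at both times 10.4% of 4328 did so, of the other genes with at least 100 FPKM 36.0% of 581, and of the other short and abundant genes 73.2% of 149. At 15 min, 4 genes had already turned (Rpl13, Rpl41, Rps24 and Rps27rt), 26 were still lower and turned by 120 min, and 17 were listed at 0 and 120 min but not between. Rpl15, Rpl29 and Rps26 were listed only after peroxide and were higher at both times. Rpl15 was at 80.4 and 104 FPKM at 15 min and 94.4 and 182 FPKM at 120 min, and Rpl29 was at 172 and 232 FPKM and then 190 and 372 FPKM.

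Further ribosomal proteins lie outside the naming rule. Fau, a fusion gene that yields a small subunit protein, was at 609 and 407 FPKM in WT and S51A at 0 min and at 600 and 1152 FPKM at 120 min. It was lower in S51A at 0 min and higher at 120 min. Rack1, listed under its older symbol Gnb2l1, was at 1479 and 771 FPKM at 0 min and 1269 and 849 FPKM at 15 min, and is missing from the table for 120 min.

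Ribosome biogenesis factors, which make and process rRNA and assemble the subunits, were lower in S51A before peroxide and mostly still lower after it. Of 91 on the list, 82 of 84 listed were lower at 0 min, 84 of 86 at 15 min and 54 of 61 at 120 min. Over all listed genes the shares lower were 50.4%, 50.1% and 49.1%. Median log2 ratios of the factors were -1.12, -0.98 and -0.78. Of 59 listed at 0 and 120 min, 52 were lower at both times and 5 were first lower and then higher, against 1 and 47 of the 49 ribosomal protein genes. From 0 to 120 min the log2 ratio was larger in 49 of those 59 (median change 0.39) and the S51A value in 43. Heatr1 and Polr1b, among those with the lowest ratios at 120 min, did not share this. Heatr1, a small subunit processome factor, was at 30.5 and 12.9 FPKM in WT and S51A at 0 min, 37.3 and 10.7 FPKM at 15 min, and 28.6 and 7.73 FPKM at 120 min. Polr1b, a subunit of RNA polymerase I, was at 20.7 and 9.51 FPKM, then 25.6 and 9.32 FPKM, then 17.6 and 5.74 FPKM. The genes higher at 120 min were Eif6, Gar1, Nop10, Polr1d, Utp3, Taf1a and Taf1b, named after their values were seen. The median transcript of these factors is 2682 nt, and 2.33% of them have a transcript under 1000 nt, against a median of 751 nt and 77.2% for the ribosomal protein genes. The part of this difference in length was not tested.

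Mitochondrial ribosomal proteins, encoded in the nucleus and made by the cytosolic ribosome, were all lower before peroxide and divided at 120 min. They were lower for 59 of 59 listed genes at 0 min and 43 of 48 at 15 min, and higher for 33 of 48 at 120 min, with median log2 ratios of -0.87, -0.50 and 0.62 and a median transcript of 1197 nt. Other TOP mRNA genes were lower for 22 of 23 at 0 min and 16 of 17 at 15 min, and higher for 8 of 12 at 120 min. Of all listed genes, 50.4% and 50.1% were lower at 0 and 15 min, and 50.9% were higher at 120 min. Eef1a1, the elongation factor that brings tRNA to the ribosome, stayed lower at 5149 and 2304 FPKM, then 4705 and 2539 FPKM, then 5367 and 3517 FPKM. Pabpc4, a poly(A)-binding protein, was also lower at all times. Eef1a1 and Pabpc4 were among the 4 of 12 listed TOP genes that were lower at 120 min. The median log2 ratios of the TOP list were -0.58, -0.47 and 0.59. Of 11 listed at 0 and 120 min, 6 were first lower and then higher and 4 were lower at both times. Naca was among the 6, with log2 ratios of -0.41 and 0.91. Eif4a2 was higher at all times (0.51, 0.66 and 0.95).

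**Figure D4:**
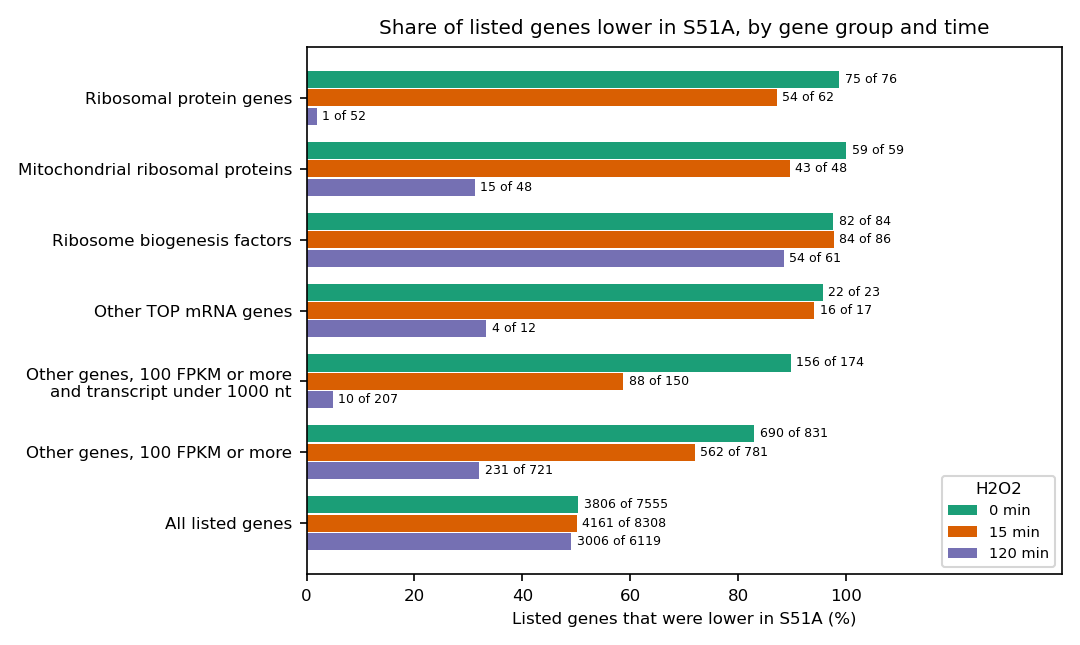
Share of listed genes that were lower in S51A (x axis, percent) for gene groups (y axis) at 0, 15 and 120 min of hydrogen peroxide; numbers give lower genes of listed genes. The bars of ribosomal protein genes run from 75 of 76 at 0 min to 1 of 52 at 120 min; at 120 min that of biogenesis factors is at 54 of 61 and that of other short and abundant genes at 10 of 207.

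Regulators of the pathway were mixed. Of 16 mTOR and TOP regulators, 6 were lower and 3 higher at 0 min, 11 and 4 at 15 min, and 7 and 3 at 120 min. Larp1, which binds the TOP tract, was lower at all times, at 80.5 and 37.5 FPKM in WT and S51A at 0 min, 79.9 and 35.5 FPKM at 15 min, and 70.5 and 39.95 FPKM at 120 min. Mtor was at 10.1 and 6.59 FPKM at 15 min and at 8.11 and 3.73 FPKM at 120 min. Tsc1 and Tsc2 were also lower at 15 and 120 min, with log2 ratios of -1.34 and -0.98 at 120 min. Larp7 was higher at 15 and 120 min (0.98 at 120 min). Maf1, a repressor of RNA polymerase III, was higher at all times, at 27.1 and 61.8 FPKM at 120 min. Of 11 transcription factors of ribosomal protein genes, 4 were lower and 2 higher at 0 min, 6 and 2 at 15 min, and 2 and 2 at 120 min. Myc, which drives ribosome production, was at 96.3 and 26.7 FPKM, then 91.1 and 26.5 FPKM, then 60.6 and 99.7 FPKM, lower at both early times and higher at 120 min. Of the 3 factors listed at 0 and 120 min, Myc alone took that course: Sp1 was first higher and then lower (18.9 and 26.4 FPKM, then 16.0 and 9.13 FPKM), and Zfp523 was higher at both times. Larp1, and Eef1a1 above, were singled out after their values were seen.

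Across the series, ribosomal protein genes filled 39 to 52 of the 100 highest listed levels of a line and time. Of 86 protein-coding genes in GENCODE M21 whose names match, 8 were in no table (Rpl10l, Rpl26, Rpl30, Rpl34, Rpl39l, Rpl3l, Rps15 and Rps27). Names marked as pseudogenes, left out, were lower for 4 of 4 at 0 min and 3 of 4 at 15 min and higher for 2 of 2 at 120 min. Of 16 fibroblast markers, 10 to 12 were listed, and they differed between the lines in both directions. At 0 min Col1a2 was at 155 and 1097 FPKM, while Dcn was at 54.2 and 8.88 FPKM. Their summed levels were 2700 and 4217 FPKM at 0 min, 2885 and 4509 FPKM at 15 min, and 1070 and 3071 FPKM at 120 min, where Vim, among others, is not listed, so the sums cover different genes. Among markers of epithelial cells, leukocytes, endothelium, muscle and pluripotent cells, only Krt19 was listed above 5 FPKM. A marker at like levels in both lines would not be listed, so the absence of such cells is not shown.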

How the data were processed

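Per the labels' protocols, poly(A) RNA of 18 labelled samples went into strand-specific libraries sequenced as single 75-nt reads. STAR, Cufflinks, Cuffdiff and mm10 are named in the submitters' processing notes with no version or role, and with the gene annotation not given in the sources used here. Per the file headers, the authors deposited, for each of 3 times, the log2 FPKM of both lines, their log2 ratio and a q-value (an adjusted p-value). All entries are marked significant, with q-values of at most 0.05. The deposited ratio equals S51A minus WT within 0.01. FPKM is 2 to the power of the deposited value. No member was listed at 0. In all, 3 numeric columns (1 per table) were not used. Depth is unknown, so no interval is given.

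Directions are the authors' calls. Members were counted beside all listed genes, since the tables hold no samples to test. Starts were raised by 1. Transcript lengths and shared 75-nt windows came from GENCODE M21 and promoters from RefSeq GRCm38.p6. Members and lists were chosen with earlier results of these data known. Named genes were the 5 highest and lowest ratios per table, exceptions to the majority, the 4 highest and lowest levels, the largest and smallest changes over time, and a fixed set; of other lists, up to 4 by ratio at 120 min. Counting and summary steps were tested on simulated data. Python 3.11.15, pandas 2.3.3, numpy 2.4.6 and matplotlib 3.10.9 were used. Alternatives covered the q-value, fold, level, names, mean, pseudocount (1 FPKM), centring and gene set. A few genes that enter the counts are not reported here by name or shown in plots of single genes.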

Additional observations from a re-analysis of the deposited data

How the results depend on the processing

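Of 73 alternative values for 18 results, 61 kept their direction and stayed within 0.1 log2, or within 1.5 times for counts; 6 moved further and 6 changed sign. A minimum fold of 2 left 29 genes lower at 0 min (75 without it), 0 lower at 15 min (54) and 12 higher at 120 min (51), and a minimum of 1.5 left 16 lower at 15 min; fewer genes pass by construction. The gap between more and less expressed genes changed from -0.125 to 0.015 at 0 min, from -0.07 to 0.09 at 15 min and from 0.095 to 0.21 at 120 min with the genes listed at all 3 times split by their level over the 3 tables. Large minus small subunit changed from 0.08 to -0.06 at 15 min and from -0.03 to 0.09 at 120 min over those genes, and to 0.096 at 120 min with means; the cause was not tested. Centred on all genes listed at both times, the change from 0 to 120 min became 0.105 in WT (-0.01 as deposited) and 1.82 in S51A (1.60). Taking only genes with under 20% of windows shared was chosen after seeing the data. No paired analysis was possible because the tables hold 1 value per group; for the same reason no replicate could be left out.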
